A study of Mus musculus with 12 samples.

Results

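The genes of oxidative phosphorylation described here are all rows of a raw count table whose symbol begins with Nduf, Uqcr, Cox4 to Cox8 or Atp5, or is Sdha, Sdhb, Sdhc or Sdhd. The rule found 90 of 23337 rows: 36 genes of complex I, 4 assembly factors of complex I, 4 genes of complex II, 8 of complex III, 18 of complex IV, 15 of complex V and 5 that share a name but are not subunits. RNA was sequenced from NU1, a mouse urothelial line immortalised spontaneously through repeated passaging. The 12 libraries fell into 4 groups of 3, and each of experiments 5, 7 and 9 gave 1 library to every group. Proliferating control cells carried a non-targeting hairpin (shNT) and proliferating knockdown cells carried 1 hairpin against Stag2 (sh4), both delivered by lentivirus. Quiescent control and quiescent knockdown cells carried the same hairpins, were grown to confluence, then received 1 µM rosiglitazone, an agonist of PPAR gamma, with 0.5 µM erlotinib, an inhibitor of EGF receptor signalling. They are labelled as day 7 of differentiation. All 4 groups were kept in a serum medium with EGF, insulin, T3, hydrocortisone, cholera toxin and added calcium. Because 1 hairpin was used, an effect of that hairpin and the loss of Stag2 cannot be told apart, and confluence and both drugs cannot be told apart from the quiescent state. The labels give separate experiments but name no separate animals, so p-values measure the spread between cultures of 1 line.

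Oxidative phosphorylation takes place in the inner mitochondrial membrane. Complex I oxidises NADH and complex II oxidises succinate, both pass electrons through ubiquinone to complex III, and cytochrome c carries them on to complex IV, which reduces oxygen. Complexes I, III and IV pump protons, and complex V lets them return and makes ATP. Most subunits are encoded in the nucleus, and those are the genes described here. Genes encoded in mitochondrial DNA were not analysed here. In proliferating cells the chain also regenerates NAD+ for the synthesis of aspartate and nucleotides, and in differentiated urothelium it is a main source of ATP.

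Library totals ran from 14524429 to 21987539 counts, the highest being quiescent knockdown of experiment 5. Stag2 stood at 113 to 145 CPM (counts scaled to a common total, with TMM adjustment) in proliferating control and at 24.6 to 33.3 CPM in proliferating knockdown. It stood at 107 to 128 CPM in quiescent control and at 9.43 to 15.3 CPM in quiescent knockdown, so that control and knockdown libraries did not overlap. Of 15 urothelial markers 12 were detected well enough to test, with summed levels from 12308 to 23405 CPM over all 12 libraries. Trp63, which marks basal cells, was at 0 counts throughout. Krt5, also a basal marker, stood at 2.91 to 6.6 CPM in proliferating libraries and at 0.414 to 2.58 CPM in quiescent ones. The uroplakin genes Upk1b, Upk2 and Upk3a, which mark the superficial layer, did not exceed 2.23 CPM in any library. Summed markers of endothelium and smooth muscle did not exceed 0.408 CPM in any library, and those of fibroblasts did not exceed 2.27 CPM. Proliferation markers summed to between 653 and 857 CPM in proliferating control and between 8.28 and 42.2 CPM in quiescent control.

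Promoter sequence was not used by the naming rule and was read beside it. NRF1, a transcription factor known for nuclear-encoded respiratory genes, binds a palindrome-like site, searched here as GCGCANGCG on both strands. In the 300 bases around the transcription start given by RefSeq for GRCm38.p6 (250 before and 50 after), this motif was present for 21 of 74 member genes with a promoter entry (28.4%), against 7.03% of 27025 genes. Expressed genes hold it more often: among genes that passed the filter on low counts it was present for 15.3% of 8900 genes and for 20 of 71 members (28.2%). By complex it was present for 8 of 32 genes of complex I, 2 of 3 of complex II, 2 of 5 of complex III, 1 of 13 of complex IV and 7 of 14 of complex V. The YY1 motif AAGATGGCG was present for 8 member genes (10.8%) against 1.64% of all genes and 3.56% of expressed genes. The ETS motif ACCGGAAGT was present for 1 member gene and the ERR motif TCAAGGTCA for 2. A match is a description of sequence, not a measured binding site.

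The promoters of 4 members called below are printed because they hold the same motif while the genes move in opposite directions. Other members called below differ in this. Ndufb10, Sdha and Atp5o also hold the NRF1 motif, while Ndufaf3, Ndufa1, Ndufs4, Ndufa13, Ndufv3 and Cox6b2 are not among the genes with a match. Any part of the motif in the direction of change was not tested. Uqcrc1 is the member with the largest response to the hairpin, Ndufa6 is the member called higher in quiescence in both control and knockdown cells, and Cox6a1 (higher) and Sdhd (lower) were called in quiescent control cells only with the replicate block. Each runs 5′ to 3′ on the gene's strand, with motif matches in capitals. The Uqcrc1 window is chr9:108936398-108936697 (plus strand), Ndufa6 is chr15:82354242-82354541 (minus), Cox6a1 is chr5:115348909-115349208 (minus) and Sdhd is chr9:50603800-50604099 (minus).
Uqcrc1: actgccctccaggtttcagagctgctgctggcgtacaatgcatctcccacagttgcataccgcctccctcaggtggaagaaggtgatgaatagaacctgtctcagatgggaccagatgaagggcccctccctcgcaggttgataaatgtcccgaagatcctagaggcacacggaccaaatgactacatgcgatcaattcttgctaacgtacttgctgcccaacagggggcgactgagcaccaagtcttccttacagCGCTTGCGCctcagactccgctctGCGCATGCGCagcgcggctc
Ndufa6: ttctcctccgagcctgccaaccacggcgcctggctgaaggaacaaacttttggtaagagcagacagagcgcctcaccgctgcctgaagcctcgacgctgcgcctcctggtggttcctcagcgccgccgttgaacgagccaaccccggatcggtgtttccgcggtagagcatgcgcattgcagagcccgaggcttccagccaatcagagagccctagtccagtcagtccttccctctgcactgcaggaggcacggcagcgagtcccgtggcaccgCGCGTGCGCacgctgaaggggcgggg
Cox6a1: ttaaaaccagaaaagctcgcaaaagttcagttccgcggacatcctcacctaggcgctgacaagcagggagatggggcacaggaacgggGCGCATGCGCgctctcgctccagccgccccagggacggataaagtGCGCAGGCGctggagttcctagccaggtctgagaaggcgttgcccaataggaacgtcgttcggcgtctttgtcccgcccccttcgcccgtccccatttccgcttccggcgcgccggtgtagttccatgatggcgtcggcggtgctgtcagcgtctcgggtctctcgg
Sdhd: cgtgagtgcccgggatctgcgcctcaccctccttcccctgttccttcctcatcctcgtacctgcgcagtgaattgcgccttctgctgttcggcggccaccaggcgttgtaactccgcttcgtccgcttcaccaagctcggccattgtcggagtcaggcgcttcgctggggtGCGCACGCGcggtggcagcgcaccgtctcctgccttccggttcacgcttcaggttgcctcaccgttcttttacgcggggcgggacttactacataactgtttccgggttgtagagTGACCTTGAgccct
Capitals mark NRF1 matches in Uqcrc1 (3, of which 2 overlap on opposite strands), Ndufa6 (1), Cox6a1 (3, of which 2 overlap) and Sdhd (1), and in Sdhd also 1 ERR match near the end of the window, which does not overlap the NRF1 match. On GRCm38 with GENCODE M21, the Uqcrc1 gene lies at chr9:108936633-108949623 (plus strand), Ndufa6 at chr15:82350140-82354322 (minus), Cox6a1 at chr5:115345642-115348981 (minus) and Sdhd at chr9:50596357-50603812 (minus).

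Oxidative phosphorylation genes took between 0.802% and 1.07% of all counts in a library. The mean share was 0.866% ± 0.0659 (SD, n = 3) in proliferating control, 0.912% ± 0.0774 in proliferating knockdown, 0.888% ± 0.0836 in quiescent control and 0.961% ± 0.0969 in quiescent knockdown. The ranges of all 4 groups overlapped. Complex V took the most counts, between 0.318% and 0.393% of a library. Scaled to transcript length, the median mean level per kilobase was 79.3 CPM for genes of complex I, 101 for complex II, 148 for complex III, 193 for complex IV and 174 for complex V. Atp5b, the catalytic beta subunit of ATP synthase, had the highest level per kilobase (599 CPM), followed among the highest of each complex by Cox4i1 of complex IV (456). The highest of complex III was Uqcrq (292), of complex I Ndufa6 (276) and of complex II Sdha (132). The lowest tested gene of each complex was Ndufb2 in complex I at 8.3 CPM per kilobase, Sdhb in complex II (59.1), Uqcrfs1 in complex III (78.6), Cox6b2 in complex IV (0.929) and Atp5g1 in complex V (33.4). With the longest transcript of each gene in place of the median length, the medians were 59.5, 68.2, 104, 158 and 141 CPM per kilobase for complexes I to V, in the same order.

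Of the 90 genes 83 passed the filter on low counts and were tested among 12406 genes. The 7 that did not pass were Cox4i2, Cox6a2, Cox7b2, Cox8b and Cox8c, tissue-restricted isoforms of complex IV, and Ndufa4l2 and Ndufs5. Cox7b2, Cox8b and Cox8c had 0 counts in every library. Each restricted isoform stood far below its widely expressed counterpart: Cox4i1 averaged 340 CPM where Cox4i2 had 5 counts over all libraries, and Cox6a1 averaged 172 CPM where Cox6a2 had 27 counts. Cox6b2, the testis form, had 84 counts in all against a mean of 157 CPM for Cox6b1, and Cox7a1, the muscle form, had 119 against 74.9 CPM for Cox7a2. Ndufs5, a subunit that complex I needs, had 13 counts in all. It shares at least 150 bases at 95% identity or more with the transcript of another gene, as do 24 members in all, and how reads of such pairs were divided is not given in the sources used here. The levels of these 24 are therefore uncertain, and so are those of 26 members whose exons overlap another gene. Uqcrc1, Ndufa6, Cox6a1 and Sdhd have neither such a copy nor an overlap, whereas exons of Ndufaf3 overlap Impdh2 on the opposite strand and those of Ndufa13 overlap Tssk6.

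The first comparison was quiescent against proliferating control cells. Oxidative phosphorylation genes changed little in quiescence, in a comparison where 8.33% of all tested genes rose and 11.7% fell (edgeR quasi-likelihood test, Benjamini-Hochberg adjusted p under 0.05 over all genes). Of the 83 members 1 rose, Ndufa6, and 0 fell. The median log2 fold change was 0.046 over members and 0.005 over all tested genes. The median absolute log2 fold change was 0.153 over members, 0.342 over all tested genes and 0.28 over the 6545 genes whose mean level lay between the 10th and 90th percentile of the members. An absolute log2 fold change over 1 was found for 1 member (Cox6b2, at -1.32 and not called), or 1.20% of the members, and for 14.9% of all tested genes. Unadjusted p-values lay under 0.05 for 10 members and for 4314 genes in all. In bulk RNA, fewer cells of a type and less RNA per cell cannot be told apart.

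With experiment number as a replicate block the spread was smaller and more genes were called: 16.8% of all tested genes rose and 18.5% fell. In that fit 5 members rose (Ndufa6, Ndufa1, Ndufaf3, Cox6a1 and Ndufv3) and 2 fell (Sdhd and Uqcrc1). Within experiments, 32 of 83 members were higher in all 3 and 19 were lower in all 3, where 31.6% and 31.5% of all tested genes were.

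The 5 complexes had similar median log2 fold changes in quiescent control cells: 0.07 for complex I (35 genes), 0.10 for complex II (4), 0.11 for complex III (8), 0.17 for complex IV (13) and -0.04 for complex V (15). Within complex I the median was -0.08 for the 7 core subunits, which carry the redox centres, and 0.16 for the 28 accessory subunits. Complex IV was the most uniform in sign, with 8 of 13 genes higher in all 3 experiments and 0 lower in all 3. Complex V had 3 of 15 higher and 4 lower in all 3. The median of complex V was -0.00, -0.13 and 0.02 in experiments 5, 7 and 9, and that of complex IV was 0.12, 0.04 and 0.16, above complex V in each experiment. The median of the accessory subunits of complex I (0.16, 0.10 and 0.19) was likewise above that of the core subunits (-0.13, -0.01 and -0.13) in each experiment. These differences between sets of genes were not tested. Without quiescent control of experiment 9 the medians were -0.0470 over all members, -0.0364 for complex I and -0.0363 for complex IV. Without proliferating control of experiment 5 they were -0.0359 over all members and -0.0026 for complex III. The median of complex V was 0.0267 without proliferating control of experiment 9, and 0.0175 and 0.0068 without quiescent control of experiments 5 and 7. The signs of these medians thus rest on single libraries.

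**Figure D1:**
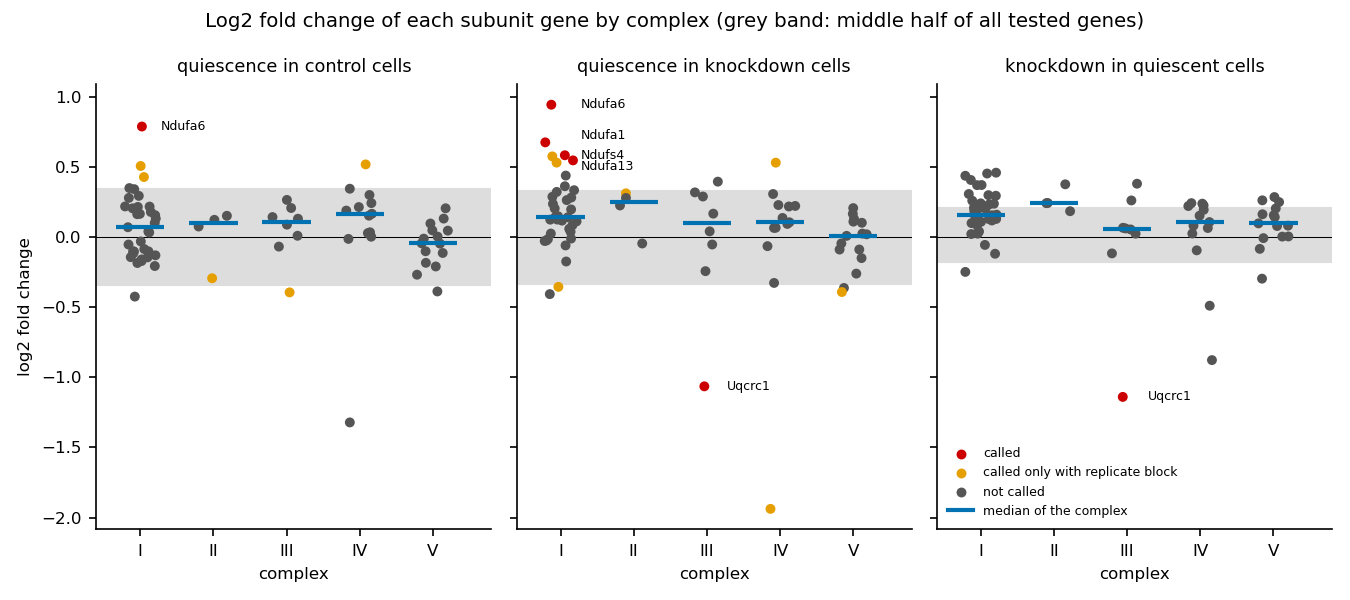
Log2 fold change of each tested subunit gene (points, 75 genes) by complex in 3 comparisons, with the median of each complex as a blue bar and the middle 50% of all 12406 tested genes as a grey band. Most points lie inside the band for quiescence, and the called genes are Ndufa6 above it and, in knockdown cells, Ndufa6, Ndufa1, Ndufs4 and Ndufa13 above and Uqcrc1 below it, as it is for the hairpin in quiescent cells.

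Ndufa6, an accessory subunit of complex I of the LYR family, stood at 66.7, 73.0 and 75.5 CPM in proliferating control (experiments 5, 7 and 9) and at 87.4, 127 and 157 CPM in quiescent control. All 3 quiescent libraries lay above all 3 proliferating ones, with the smallest gap in experiment 5. This was a 1.73-fold rise (log2 fold change 0.79, SE 0.19, adjusted p = 0.016 by edgeR). The edgeR adjusted p was 0.0516 without proliferating control of experiment 7, 0.0625 without quiescent control of experiment 9 and 0.0512 in a fit to these 2 groups alone.

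Ndufa1, an accessory subunit of the membrane arm encoded on the X chromosome, stood at 28.9, 25.5 and 25.6 CPM in proliferating control and 36.8, 38.2 and 38.6 CPM in quiescent control. Ndufaf3, an assembly factor for complex I, stood at 13.3, 10.2 and 9.77 CPM and then at 17.4, 14.2 and 16.2 CPM. Cox6a1, the widely expressed form of a regulatory subunit of complex IV, stood at 117, 128 and 146 CPM and then at 168, 170.3 and 222 CPM. In each of these genes the quiescent libraries lay above the proliferating ones without overlap. Their log2 fold changes were 0.51 (SE 0.18), 0.52 (SE 0.18) and 0.52 (SE 0.19), with edgeR adjusted p of 0.0722, 0.0665 and 0.0816 and, with the replicate block, of 0.0445, 0.016 and 0.0363. Ndufv3, a small subunit of the NADH-oxidising module, had a log2 fold change of 0.43 (SE 0.24) with adjusted p = 0.224 by edgeR, and 0.0426 with the replicate block. Its groups overlapped, from 21.1 to 32.8 CPM and from 32.3 to 41.3 CPM.

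Sdhd, a membrane anchor of complex II, stood at 98.3, 94.1 and 95.7 CPM in proliferating control and at 74.3, 75.4 and 85.3 CPM in quiescent control, without overlap. Its log2 fold change was -0.29 (SE 0.10) with an edgeR adjusted p of 0.061, and of 0.0308 with the replicate block. The other 3 subunits of complex II did not pass in either fit: Sdha, the flavoprotein, had a log2 fold change of 0.15 (SE 0.20), the iron-sulphur subunit Sdhb 0.08 (SE 0.14) and the anchor Sdhc 0.12 (SE 0.13). Uqcrc1, a core subunit of complex III, stood at 207, 216 and 203 CPM in proliferating control and at 161, 162 and 154 CPM in quiescent control. These groups did not overlap, and the log2 fold change of -0.39 (SE 0.18) had an edgeR adjusted p of 0.144, and of 0.0493 with the replicate block. Ndufa4, now counted with complex IV, had a log2 fold change of 0.21 (SE 0.25), and Cox7a2l, a factor of respiratory supercomplexes, one of 0.06 (SE 0.195).

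In complex V, with 0 members called in either fit, the log2 fold changes ran from -0.39 (SE 0.18) for Atp5g2, which encodes the proton-carrying c subunit, to 0.21 (SE 0.22) for Atp5k. The catalytic Atp5b stood at 1133, 1302 and 1326 CPM in proliferating control and at 1000.2, 1033 and 1091 CPM in quiescent control. These groups did not overlap, but its log2 fold change of -0.27 (SE 0.12) had an edgeR adjusted p of 0.136, and of 0.0882 with the replicate block. In complex I the lowest value was -0.42 (SE 0.21) for Ndufab1, the mitochondrial acyl carrier protein. The other assembly factors of complex I had -0.09 (SE 0.18) for Ndufaf1, -0.41 (SE 0.26) for Ndufaf2 and -0.43 (SE 0.26) for Ndufaf4, so that Ndufaf3 alone of the 4 was above 0.

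The same comparison was made in cells with the Stag2 hairpin. Here 5 members rose, where 7.59% of all tested genes did, and 1 fell, where 10.8% did. The risers were Ndufa6 (log2 fold change 0.94, SE 0.19), Ndufaf3 (0.75, SE 0.18), Ndufa1 (0.68, SE 0.18), the accessory subunit Ndufs4 (0.58, SE 0.16) and the accessory subunit Ndufa13 (0.55, SE 0.14), with adjusted p by edgeR from 0.00716 to 0.0284. All 5 belong to complex I or its assembly, which hold 35 and 4 of the 83 tested members. Of the 35 genes of complex I 4 rose, or 11.4%. Uqcrc1 fell by 1.06 on the log2 scale (SE 0.18, adjusted p = 0.00286). An absolute log2 fold change over 1 was found for 2 members (Uqcrc1 and Cox6b2), or 2.41%, against 13.7% of all tested genes. With the replicate block 9 members rose, against 15.9% of all tested genes, and 4 fell, against 17.2%. The members called only there were Cox6a1, Ndufb10, Ndufv3 and Sdha among those that rose. Atp5o, which links the 2 parts of ATP synthase, and Cox6b2 were among the added ones that fell. Cox6b2 had at most 0.966 CPM in any library.

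Ndufa6 stood at 69.2, 91.6 and 70.5 CPM in proliferating knockdown and at 162, 132 and 151 CPM in quiescent knockdown. Ndufs4, which helps to stabilise the NADH-oxidising arm, stood at 43.7, 54.9 and 44.1 CPM and then at 87.9, 63.5 and 62.2 CPM. Ndufa13, also known as GRIM-19, stood at 94.2, 122 and 102 CPM and then at 191, 133 and 141 CPM. In all 3 genes the quiescent libraries lay above the proliferating ones, and for Ndufs4 and Ndufa13 the library of experiment 5 was by far the highest. Ndufa1 stood at 26.1, 33.9 and 27.3 CPM and then at 61.7, 37.4 and 40.2 CPM, again with experiment 5 highest. Uqcrc1 stood at 185, 151 and 116 CPM in proliferating knockdown and at 76.1, 85.0 and 55.2 CPM in quiescent knockdown, without overlap.

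The medians in knockdown cells were 0.14 for complex I, 0.25 for complex II, 0.10 for complex III, 0.11 for complex IV and 0.01 for complex V, with 0.11 over all members and 0.005 over all tested genes. They hide a difference between experiments. In experiment 5 the median of the members was 0.53, in experiment 7 it was -0.17 and in experiment 9 it was -0.03. All 5 complexes shared this pattern: their medians lay between 0.40 and 0.60 in experiment 5 and between -0.36 and -0.04 in experiment 7.

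**Figure D2:**
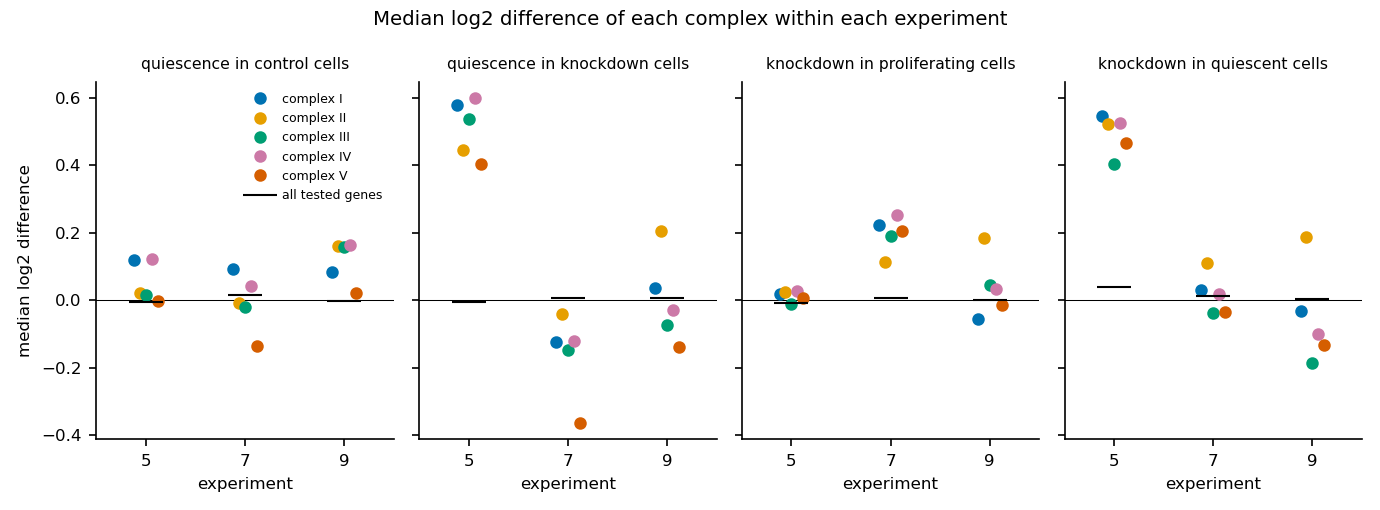
Median log2 difference of each complex (coloured points) and of all tested genes (black bars) within experiments 5, 7 and 9, for 4 comparisons. The 5 complexes stand at 0.40 to 0.60 in experiment 5 for quiescence in knockdown cells and below 0 in experiment 7, while in control cells they stay between -0.13 and 0.16.

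The quiescent knockdown library of experiment 5 also had the highest share of counts in oxidative phosphorylation genes, 1.07%. Without it 1 member rose in quiescent knockdown cells in place of 5 (Ndufa6 at 0.87) and the median of the members was -0.0261. The log2 fold changes of Ndufaf3, Ndufa1, Ndufs4 and Ndufa13 were then 0.55, 0.41, 0.40 and 0.37, none of them past the threshold. Without proliferating knockdown of experiment 5, and without that of experiment 9, 2 members rose. The share of all tested genes called was not taken for fits that leave out a library. These counts of members therefore cannot be set against such a share. Uqcrc1 remained past the threshold without each of the 6 libraries in turn. Members have short transcripts, with a median length of 683 bases where tested genes have 2166. In quiescent knockdown against quiescent control of experiment 5, other genes under 1 kb had a median log2 difference of 0.24 and genes over 3 kb one of -0.19, where the members had 0.50. In experiments 7 and 9 the corresponding medians lay between -0.02 and 0.02, and those of the members were 0.03 and -0.08. The part of transcript length, or of depth, in the shift of the members in that library was not tested.

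**Figure D3:**
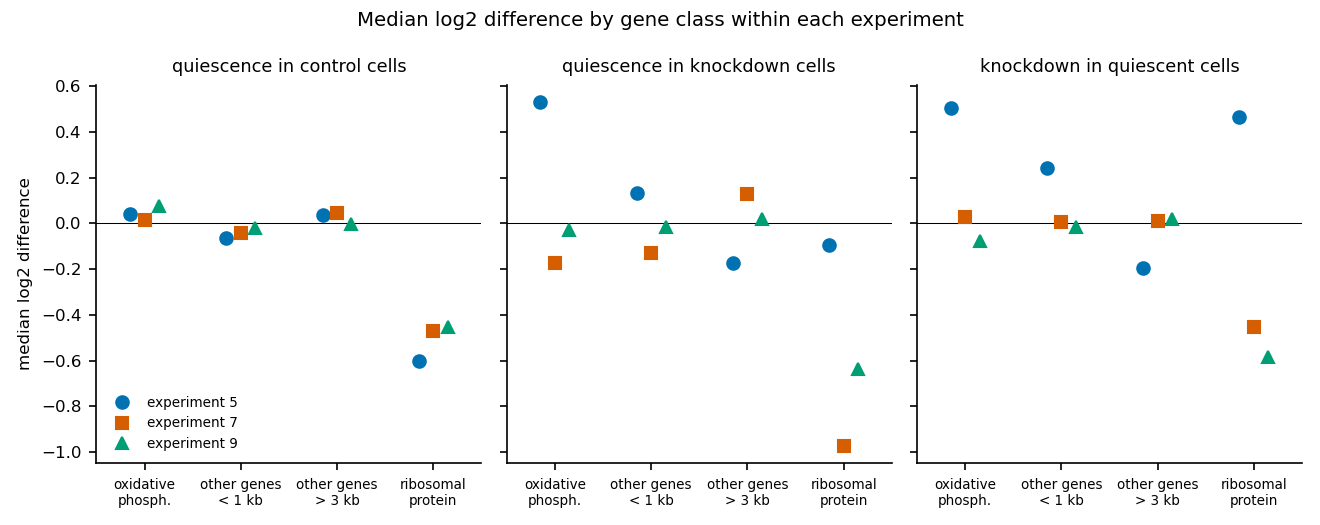
Median log2 difference within each experiment (blue circles, 5; orange squares, 7; green triangles, 9) for the 83 members, for 2181 other tested genes under 1 kb, for 3886 over 3 kb and for 79 ribosomal protein genes, in 3 comparisons. For knockdown in quiescent cells, experiment 5 stands apart in all 4 classes. For quiescence in knockdown cells, other short and long genes are at 0.13 and -0.17 in experiment 5 and at -0.13 and 0.13 in experiment 7.

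In proliferating cells the hairpin changed 0 of 83 members by edgeR, with or without the replicate block, and 0 by DESeq2. Few genes of any kind were called: 0.0242% of all tested genes in both fits, that is 3 genes. The unadjusted p lay under 0.05 for 228 genes, of which 1 was a member, Uqcrc1. The 116 to 185 CPM of Uqcrc1 in proliferating knockdown lay below the 203 to 216 CPM of proliferating control in all 3 experiments. Its log2 fold change was -0.47 (SE 0.18), with an unadjusted p of 0.0236 and an edgeR adjusted p of 0.9998. Next in rank were Ndufaf3 at 0.40 (SE 0.18) and Atp5sl, which is not a subunit of ATP synthase, at 0.26 (SE 0.13). The median over members was 0.09, and by complex it was 0.06, 0.08, 0.07, 0.12 and 0.09 for complexes I to V. Within experiments the median of the members was 0.02, 0.21 and -0.02.

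In quiescent cells the hairpin lowered 1 member, Uqcrc1, where 0.282% of all tested genes fell, and raised 0, where 0.153% rose. With the replicate block the shares over all genes were 1.96% lower and 1.59% higher. The members called were then Uqcrc1, lower, and Ndufaf3, higher. The median log2 fold change was 0.14 over members and 0.02 over all tested genes, and it was 0.0327 without quiescent knockdown of experiment 5. By complex the medians were 0.16, 0.24, 0.06, 0.11 and 0.10. Within experiments 5, 7 and 9 the median of complex II was 0.52, 0.11 and 0.19, and the other 4 complexes were between 0.40 and 0.55 in experiment 5 and below 0.04 in experiments 7 and 9.

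Uqcrc1 stood at 76.1, 85.0 and 55.2 CPM in quiescent knockdown (1679, 1426 and 942 counts), against 161, 162 and 154 CPM in quiescent control (2333, 2649 and 2575 counts). The 3 knockdown libraries lay below every other library of the study. The level was 0.45 times that of control (log2 fold change -1.14, SE 0.18, edgeR adjusted p = 0.0296), and with the replicate block the log2 value was -1.16 (adjusted p = 0.0038). It was -1.08, -0.93 and -1.47 within experiments 5, 7 and 9. In 6 fits without the replicate block that left out 1 library each, it ran from -1.27 to -0.98. Uqcrc1 was past the threshold in 1, the fit without quiescent knockdown of experiment 7. Leaving out libraries was not tried with the block. The edgeR adjusted p was 0.0861, 0.0898 and 0.108 without quiescent control of experiments 5, 7 and 9, and 0.124 without quiescent knockdown of experiment 5 or of experiment 9. None of the other subunits of complex III was called. Uqcrc2, the partner core subunit, stood at 152, 169 and 195 CPM in quiescent control and at 169.7, 171 and 183 CPM in quiescent knockdown. The 7 other genes of complex III had log2 fold changes between -0.12 and 0.38.

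Ndufaf3 stood at 30.5, 20.4 and 22.4 CPM in quiescent knockdown, above the 14.2 to 17.4 CPM of quiescent control in all 3 experiments. Its log2 fold change was 0.62 (SE 0.18) with an edgeR adjusted p of 0.19, and of 0.0441 with the replicate block. Sdhd stood at 108, 92.2 and 105 CPM, again without overlap with quiescent control, at a log2 fold change of 0.38 (SE 0.10). Its edgeR adjusted p was 0.145, and 0.0528 with the replicate block. For Sdhd the quiescent knockdown libraries lay within 92.2 to 108 CPM where proliferating control lay within 94.1 to 98.3 CPM. The quiescent knockdown libraries also held more Csf1r, a macrophage marker, at 104 to 163 CPM against 32.3 to 59.7 CPM in quiescent control. Of the 5 immune markers in the table, which summed to between 110.2 and 169.8 CPM there and between 39.7 and 61.9 CPM in quiescent control, only Csf1r and Cd68 were tested. The sum is mostly Csf1r, while Cd68, also a macrophage marker, averaged 5.56 CPM in quiescent control and 4.75 CPM in quiescent knockdown. Cd3e was at 0 and Ptprc did not exceed 0.41 CPM in any library. Summed urothelial markers ran from 21482 to 23405 CPM in quiescent knockdown against 12378 to 19411 CPM in quiescent control, a sum carried by Krt8, Krt18 and Krt19. Of the 12 tested urothelial markers 8 had a positive and 4 a negative log2 fold change (Cdh1, Epcam, Foxa1 and Gata3), and 0 were called in either fit. Proliferation markers summed to 22.3 to 107 CPM against 8.28 to 42.2 CPM. The part of these transcripts in the results on quiescent knockdown cells was not tested.

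**Figure D4:**
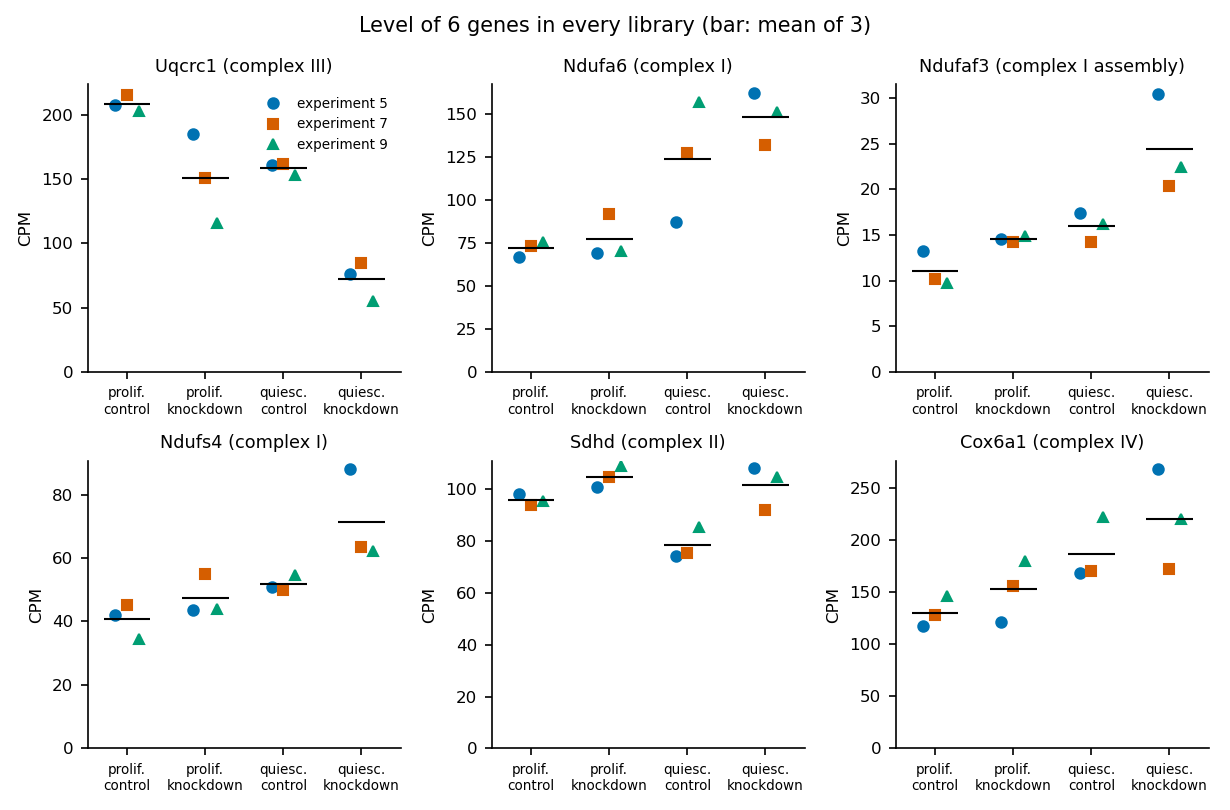
Level in CPM of 6 genes in every library by group (marker and colour, experiment; bar, mean of 3 libraries). Uqcrc1 falls to between 55.2 and 85.0 CPM in quiescent knockdown, Ndufa6 and Cox6a1 are higher in both quiescent groups on average, and Ndufaf3 is highest in quiescent knockdown, most of all in experiment 5.

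The interaction, the difference between the hairpin effects in both states (quiescent minus proliferating), was past the threshold for 0 members and for 0% of all tested genes, by edgeR with or without the replicate block. DESeq2 also called 0 members. Among 219 genes with an unadjusted p under 0.05 there was 1 member, Uqcrc1, with a log2 value of -0.67 (SE 0.25, unadjusted p = 0.0226). It was negative in all 3 experiments, at -0.92, -0.42 and -0.66, but was not shown to differ between the states after adjustment. Sdhd followed at 0.25 (SE 0.14). The median over members was 0.07, and it was 0.46, -0.20 and -0.08 in experiments 5, 7 and 9.

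Lists of other mitochondrial genes were read beside the members. Among 18 tested genes that report on mitochondrial content and import, 4 fell in quiescent control cells, 0 rose, and 17 had a negative log2 fold change, with a median of -0.30. Over all tested genes 11.7% fell in this comparison. Those that fell most were Hspd1, the matrix chaperonin, at -0.87 (SE 0.22), the ADP/ATP carrier Slc25a5 at -0.84 (SE 0.23) and the inner membrane scaffold protein Phb2 at -0.60 (SE 0.18), with adjusted p of 0.0174, 0.0252 and 0.0417 by edgeR. With the replicate block 7 of them fell, where 18.5% of all tested genes did. Hspd1 stood at 407, 639 and 721 CPM in proliferating control and at 294, 363 and 310 CPM in quiescent control, without overlap. The members, in the same libraries, had a median of 0.046. In knockdown cells 4 of the 18 fell in quiescence, where 10.8% of all tested genes did, and 0 rose.

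Of 15 tested regulators of mitochondrial biogenesis 2 fell in quiescent control cells and 0 rose, and 5 fell and 1 rose with the replicate block. Over all tested genes 11.7% fell and 8.33% rose, and 18.5% and 16.8% with the block, so that 2 of 15 is near the share of all genes. Gabpa, the DNA-binding subunit of NRF2, had a log2 fold change of -0.51 (SE 0.10, adjusted p = 0.00581 by edgeR), from 58.3 to 66.7 CPM down to 41.8 to 45.5 CPM. Nrf1, whose motif is marked in the promoters above, had -0.46 (SE 0.12, adjusted p = 0.0166), from 39.0 to 47.3 CPM down to 31.2 to 33.2 CPM. Tfam, which packages and transcribes mitochondrial DNA, had -0.50 (SE 0.18, adjusted p = 0.068, and 0.0289 with the replicate block). The receptor gene Esrra had -0.04 (SE 0.14). The coactivator gene Ppargc1a was low, from 0.173 to 1.19 CPM in proliferating control and from 1.24 to 4.41 CPM in quiescent control. Its log2 fold change was 2.22 (SE 1.04), with an edgeR adjusted p of 0.153, and of 0.0017 with the replicate block. Ppargc1b averaged under 1 CPM in every group.

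Of 28 tested assembly factors outside the naming rule, 1 rose in quiescent control cells (Ttc19, for complex III, at 0.55, SE 0.15) and 2 fell (Atpaf2, for complex V, at -0.52, SE 0.14, and Foxred1, for complex I, at -0.40, SE 0.12). Both counts lie below the shares over all tested genes, 8.33% higher and 11.7% lower. In quiescent knockdown cells against proliferating knockdown cells 1 rose (7.59% over all tested genes), Cox17, the copper chaperone of complex IV, at 0.54 (SE 0.17). The 4 other electron carriers and subunits, among them cytochrome c1 (Cyc1), had 0 calls, and Cyc1 had a log2 fold change of -0.33 (SE 0.19) in quiescent control cells. In quiescent cells the hairpin changed 1 gene of all these lists, which hold 18, 15, 28 and 4 tested genes. Over all tested genes 0.435% were called in this comparison. Phb, which forms the inner membrane scaffold together with Phb2, stood at 106, 136 and 128 CPM in quiescent control and at 40.1, 49.98 and 43.0 CPM in quiescent knockdown. Its log2 fold change was -1.47 (SE 0.21, adjusted p = 0.0139 by edgeR), while that of Phb2 was -0.04 (SE 0.18). In proliferating cells Phb had -0.999 (SE 0.20), with an edgeR adjusted p of 0.705, and of 0.0503 with the replicate block.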

How the data were processed

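Raw counts per gene and library were deposited by the authors in 1 table. Per the submitters' processing notes, Bowtie, TopHat, HTSeq, DESeq2 and the build mm10 were used, with no role or version given. Per the labels' protocols, libraries were stranded and made from polyadenylated RNA with spike-in RNA added. The use of strand in counting is not given in the sources used here. The table holds 0 spike-in rows, so levels are relative to each library's total.

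The analysis used edgeR 4.0.16 under R 4.3.3: filterByExpr (minimum count 10), TMM scaling, 4 group means over 12 libraries, glmQLFit and glmQLFTest, with Benjamini-Hochberg adjustment over 12406 genes at a threshold of 0.05. CPM uses TMM-scaled totals of tested genes, and differences within experiments use log2 CPM with a prior count of 2. Levels per kilobase use the median transcript length of GENCODE M21. The experiment number, shared by 1 library of each group and equal to the labelled batch, gave the replicate block. Over all tested genes, deviations from the group means correlated at 0.225 to 0.789 between libraries of 1 experiment (18 pairs). The numbers thus pair the libraries, and the main fit does not use this pairing. Over the members the range was 0.0534 to 0.783. The average between other libraries (48 pairs) was -0.317 over all tested genes. Subtracting group means makes such values negative, so this average is not separate evidence of pairing. The common biological coefficient of variation was 0.261, and 0.161 with the block. Replicates differed by a chi-square per degree of freedom of 29.7 to 81.5, and no pair was identical.

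The members and lists were chosen with earlier results of these data known. Named members are those past the threshold in either fit (up to 6 each way for quiescence), the 3 of lowest p for the hairpin contrasts and the interaction, all Sdh genes, complex IV isoform pairs, Ndufa4, Ndufa4l2, Cox7a2l and the extremes of level in each complex. A result that this rule would name is not reported here. From the other lists they are up to 3 each way for quiescence in control cells, all called for the hairpin, and 6 main regulators. Uqcrc2, Atp5b, Atp5g2, Atp5k, Ndufab1, the other Ndufaf genes, Cox17, Cyc1 and Csf1r were named after their values were seen, and so were the length classes and ribosomal protein genes. Further alternatives, all without the replicate block, were DESeq2 1.42.0, other scalings and filters, fits to the groups compared and leaving out each library. The edgeR fit was tested on simulated data.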

Additional observations from a re-analysis of the deposited data

How the results depend on the processing

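The numbers of members called depended on the fit more than the sizes of their changes. With the replicate block 5 members rose and 2 fell in quiescent control cells, 9 rose and 4 fell in quiescent knockdown cells, and 2 were called for the hairpin in quiescent cells. With the DESeq2 Wald test 3 rose and 2 fell in control cells, 3 fell in knockdown cells, and 2 were called for the hairpin in quiescent cells. Among the members that rose in knockdown cells by DESeq2 were Ndufa6, Ndufaf3, Ndufa1, Ndufs4, Ndufa13 and Cox6a1. With library totals in place of TMM 3 rose in control cells and the median of the members was 0.0986. A fit to the 2 groups alone gave 2 risers in knockdown cells. When each library was left out in turn, the members that rose ranged from 0 to 2 in control cells and from 1 to 7 in knockdown cells, those that fell in knockdown cells from 1 to 2, those called for the hairpin in quiescent cells from 0 to 1, and the median in control cells from -0.047 to 0.1323. The cause was not tested. Except for the replicate block, the share of all tested genes called was not taken for these alternatives. Their counts of members therefore cannot be set against such a share. No log2 fold change of a called member changed sign under any alternative run. No alternative scaling moved the median of all genes by more than 0.062. For scarce isoforms such as Cox6b2, with 84 counts in all, depth limits what can be seen. The SE values given come from the edgeR fit and include the spread between cultures of 1 line.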

Other observations

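Uqcrc1, which was lower with the hairpin, and Ndufaf3, which was higher with it when the replicate block was used, lie 369 kb apart on chromosome 9 (RefSeq, GRCm38.p6). This neighbourhood was looked at after the values of both genes were seen. Of the 18 genes annotated from Ndufaf3 to Uqcrc1, 10 were tested. In quiescent cells the hairpin effect was negative for 2 of them, Uqcrc1 and the ubiquitin ligase gene Arih2 (-0.16, SE 0.12), and positive for 8. Wdr6, which lies close to Ndufaf3, had a log2 fold change of 0.47 (SE 0.27), at 0.47, 0.43 and 0.53 in experiments 5, 7 and 9, and its edgeR adjusted p was 0.539, and 0.0944 with the replicate block. Among these 10, the gene nearest to Uqcrc1, Slc26a6, had 0.11 (SE 0.32). Genes outside this stretch, on the far side of Uqcrc1 among them, were not looked at. Apart from Uqcrc1 and Ndufaf3, 0 of the 10 were past the threshold for this comparison in either fit.

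The 79 tested ribosomal protein genes, a class looked at after its values were seen, had median log2 differences of -0.60, -0.47 and -0.45 between quiescent and proliferating control cells in experiments 5, 7 and 9, where oxidative phosphorylation genes had 0.04, 0.01 and 0.08. Between quiescent knockdown and quiescent control cells their medians were 0.46, -0.45 and -0.58, so that experiment 5 stood apart for this class as it did for the members.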
